A study of Mus musculus with 2 samples.

Results

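The Ly6 family surface proteins described here are 5 mouse genes, Ly6a, Ly6c1, Ly6c2, Ly6e and Ly6k, out of 33696 features in the count matrix. They were chosen by symbol, with earlier results of these data known, for their levels in 2 classes of tumour cells called A and B. The cells came from 1 library of KPCY 6419c5, a pancreatic ductal adenocarcinoma line. KPCY is a mouse tumour model in which Cre acts in the pancreas and also switches on a yellow fluorescent reporter. Clones 76 and 84 of that line were mixed in equal numbers after 19 days of editing by a Cas12a adenine base editor used for lineage tracing. Both clones had been edited, and no unedited control or second library of this pool was used here. A sample of clones 1, 32, 33, 52 and 76, also after 19 days, is not analysed here.

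A and B cells were told apart by marker genes only, since cells carried no clone label used here. A cell was kept with at least 2000 unique molecular identifiers (UMIs, each standing for 1 captured 3′ molecule), 1000 or more genes, and no more than 15% of UMIs from mitochondrial genes. A cells had at least 2 UMIs of Pde10a, Plcb1, Galnt18, Arhgap15 and Ceacam1 together, and at least 3 times their UMIs of the B list. B cells had at least 2 UMIs of S100a7a, Rgs20, Hs6st2, Ccbe1, Ctse and Mal together, and at least 3 times their UMIs of the A list. Of 21361 cells kept, 7816 were A cells with a median of 4699.5 UMIs, 8936 were B cells with a median of 5440.5 UMIs, and 4609 were neither. With 1 library there are no replicates, so no test was made and no p-value is given. Intervals are exact 95% intervals and cover counting error only. They are Poisson for sums of UMIs and for counts of cells with both genes of a pair, and Clopper-Pearson for shares. Levels are summed counts scaled to a fixed total of UMIs, the usual CPM. They are not scaled by transcript length, so each gene is compared only with itself between cells. Fewer cells expressing a gene and less RNA per cell cannot be told apart from a summed level.

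The LU domain, a small fold held by disulfide bonds, defines the Ly6 family. Most members are held on the outer face of the membrane by a glycosylphosphatidylinositol (GPI) anchor, a lipid added to the protein after synthesis. Many mouse Ly6 genes lie in a cluster on chromosome 15, and several are known interferon-inducible genes. Ly6a encodes stem cell antigen 1, a marker used to sort blood stem cells and tumour-initiating cells in mice. Ly6c1 and Ly6c2 are near-identical neighbours that encode Ly6C, used to sort monocytes and also found on endothelial cells. Ly6e is broadly expressed, and Ly6k is best known in testis and sperm.

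The promoters of Ly6c1 and Ly6c2 are shown because the genes are near-identical neighbours whose reads may be hard to tell apart. Each line holds the 250 bases before the most upstream start, 5′ to 3′ on the minus strand, from RefSeq on build GRCm38.p6. Capitals mark bases inside the aligned stretch that differ from the other gene or have no partner there. The Ly6c1 stretch is chr15:75048838-75049087 and the Ly6c2 stretch is chr15:75111972-75112221.
Ly6c1: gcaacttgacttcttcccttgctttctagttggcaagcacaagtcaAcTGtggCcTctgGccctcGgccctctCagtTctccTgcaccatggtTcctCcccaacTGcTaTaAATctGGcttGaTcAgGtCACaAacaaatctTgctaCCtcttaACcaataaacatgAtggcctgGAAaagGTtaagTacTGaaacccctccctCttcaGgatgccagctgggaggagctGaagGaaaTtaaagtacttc
Ly6c2: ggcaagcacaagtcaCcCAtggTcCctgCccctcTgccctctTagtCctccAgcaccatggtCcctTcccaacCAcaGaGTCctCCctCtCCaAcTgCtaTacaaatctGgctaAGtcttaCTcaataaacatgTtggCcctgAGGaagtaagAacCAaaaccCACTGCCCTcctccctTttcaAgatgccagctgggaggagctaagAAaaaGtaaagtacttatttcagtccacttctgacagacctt
The 2 promoters aligned over 231 columns, of which 170 were identical (73.6%), 41 differed and 20 were gaps. Short motifs were then searched on both strands. The interferon-response core, GAAANN followed directly by GAAA, was found in neither promoter and in 2.98% of 32536 promoters of the same table. The letters TATAAA occurred once in Ly6c1, starting at position -143 from the start, and not in Ly6c2, against 12.3% of all promoters. A match is a description of letters and not a measured binding site. The counted 3′ ends were closer still: over the last 400 bases of the transcripts, 386 of 393 aligned positions were identical (98.2%). Of 311 windows of 90 bases there, 35 (11.25%) were found exactly in both genes. For Ly6a, Ly6e and Ly6k, 0 such windows were shared with another member. How reads matching both genes were counted is not given in the sources used here, so the Ly6c1 and Ly6c2 counts are uncertain to that extent.

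Ly6a and Ly6c1 were higher in B cells, Ly6e was at nearly the same level in both classes, and Ly6c2 and Ly6k were barely detected. These values chose the genes and are a description. Ly6a gave 11323 UMIs in A cells and 35764 in B cells. Its level was 281 CPM in A (276 to 286) and 678 CPM in B (671 to 685), a 2.41-fold higher level in B (2.36 to 2.46). The intervals of A and B did not overlap.

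Ly6c1 gave 934 UMIs in A and 8529 in B. Its level was 23.2 CPM in A (21.7 to 24.7) and 162 CPM in B (158 to 165), which is 6.97-fold higher in B (6.51 to 7.46). On the log2 scale, A over B was -2.80 for Ly6c1 and -1.27 for Ly6a. Ly6e gave 480.1 CPM in A (473 to 487) and 464 CPM in B (458 to 470), and its log2 ratio of A over B was 0.05 (0.02 to 0.08).

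Ly6c2 gave 3 UMIs in A and 4 in B. The interval of the B over A ratio ran from 0.172 to 6.95, so no difference was detectable at this depth. Ly6k gave 0 UMIs in 7816 A cells, and 1 UMI in B cells. The exact upper limit of the share of A cells with a UMI is 0.0472%, which limits detection at this depth and not the cells that express Ly6k. No fold is given for Ly6k.

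**Figure D1:**
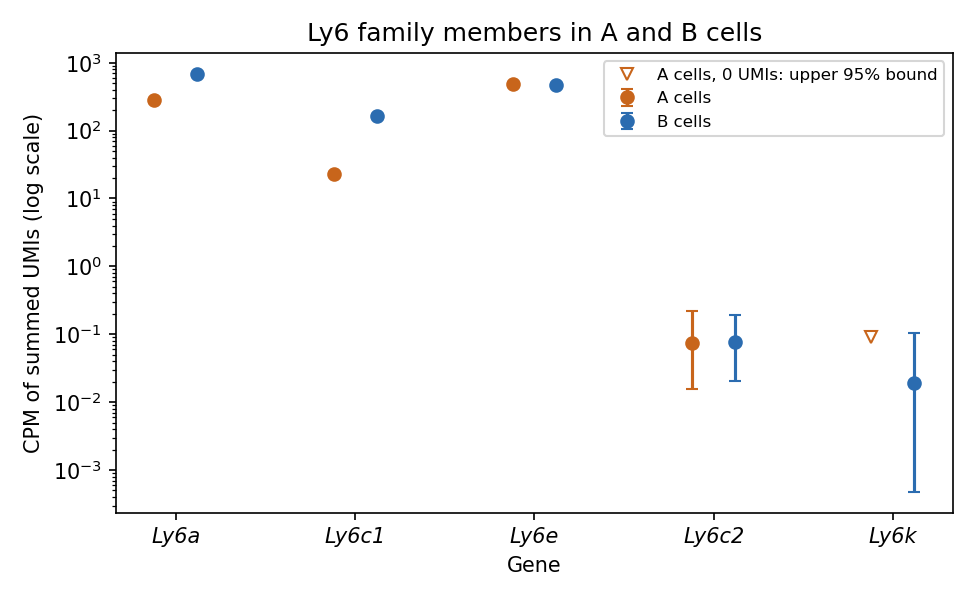
CPM of each Ly6 gene in A cells (orange) and B cells (blue) on a log axis, with exact 95% Poisson intervals; the open triangle is the upper bound where 0 UMIs were counted. Ly6a and Ly6c1 sit higher in B cells, Ly6e is at 480.1 and 464 CPM, and Ly6c2 and Ly6k lie near or under 0.1 CPM.

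As background, 3908 genes reached 50 CPM in A or B. Of these, 6.68% were at least 2-fold higher in B, as Ly6a and Ly6c1 were, and 7.6% were at least 2-fold higher in A. The median log2 ratio of A over B over the 3908 genes was 0.11. Since the genes were chosen on this contrast, nothing is read from that share. The level of Ly6a in A cells was 41.5% of that in B cells, and the level of Ly6c1 was 14.3%. For comparison, the 10 genes outside the rule that were most restricted to B cells, among them Krt14, Dsp and Wnt10a, had a median of 3.06% of their B level in A cells. These 10 genes were picked for the lowest such percentages, so the median is low by that choice. It covers free RNA, mixed droplets, misassigned cells and any expression in A cells together.

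The share of cells with a UMI was read after each cell was thinned at random to 3000 UMIs, which left out 410 A and 109 B cells with fewer. Ly6a was then detected in 44.9% of A cells (43.8 to 46.1) and 73.4% of B cells (72.4 to 74.3). Ly6c1 was detected in 5.20% of A cells (4.70 to 5.73) and 31.7% of B cells (30.7 to 32.6). Ly6e was detected in 73.9% of A cells and 74.1% of B cells. Without thinning the shares were 57.4% and 85.2% for Ly6a, 8.56% and 44.8% for Ly6c1, and 86.3% and 90.2% for Ly6e. In the 1899 A and 3331 B cells deep enough for thinning to 6000 UMIs, the shares in A and B were 69.9% and 85.5% for Ly6a and 13.8% and 44.9% for Ly6c1, so the ratio of the B share to the A share was smaller in these cells.

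Ly6a varied between cells more than random sampling of molecules gives, and Ly6e hardly did. In B cells 26.6% of cells had 0 Ly6a UMIs, where a Poisson distribution of the same mean gives 12.99%, and 7.001% had 6 or more. In A cells 55.1% had 0 Ly6a UMIs against 45.5% by Poisson. The Fano factor of Ly6a, the variance over the mean and 1 for Poisson counts, was 1.80 in A and 2.09 in B. For Ly6c1 the Fano factor was 1.32 in A and 1.69 in B. Ly6e had 1.14 in A and 1.09 in B. The highest count in 1 unthinned cell was 47 UMIs for Ly6a, 31 for Ly6c1 and 18 for Ly6e, all in B cells.

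**Figure D2:**
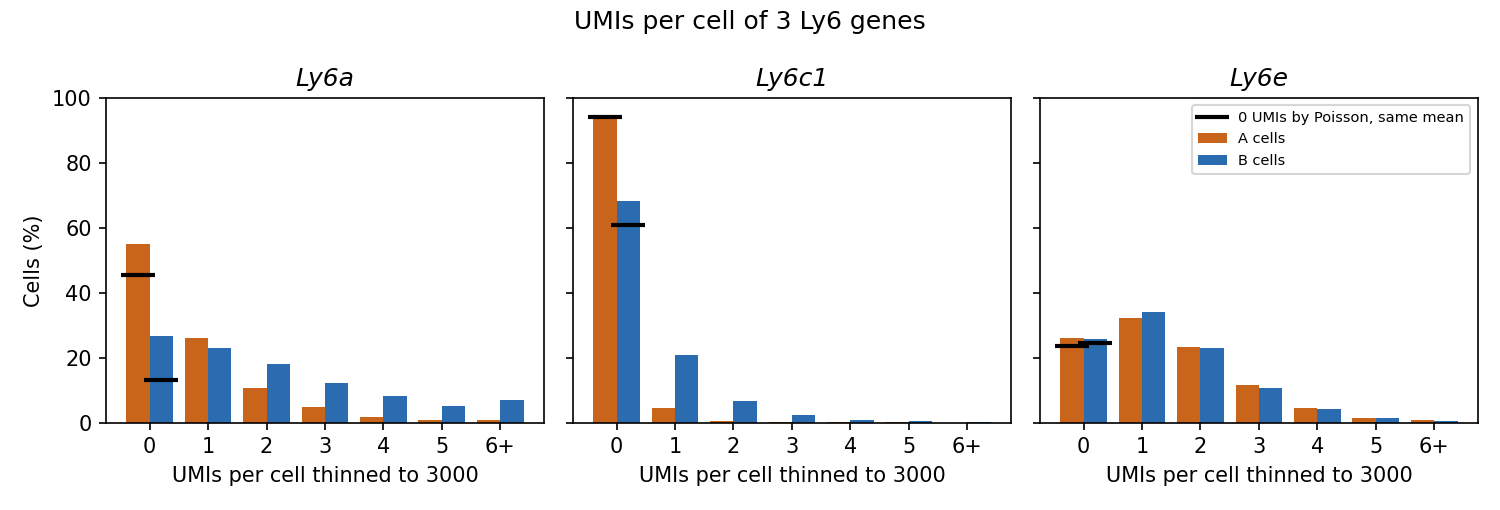
Share of A cells (orange) and B cells (blue), in percent, with 0 to 6 or more UMIs of Ly6a, Ly6c1 and Ly6e, in cells thinned to 3000 UMIs; black marks give the share at 0 for a Poisson distribution of the same mean. The share at 0 is 26.6% for Ly6a in B cells against 12.99% by Poisson, while for Ly6e the marks lie close to the bars.

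Ly6a and Ly6c1 had similar levels just outside and just inside the marker threshold. Cells with 1 A-list UMI and 0 B-list UMIs, just outside, had 303 CPM of Ly6a and 26.1 CPM of Ly6c1. Cells with 2 and 0, just inside, had 317 and 29.4 CPM. Cells with 1 B-list UMI and 0 A-list UMIs had 789 CPM of Ly6a and 209 CPM of Ly6c1, and those with 2 and 0 had 768 and 185 CPM. Cells with 3 and 0 had 719 CPM of Ly6a (699 to 740) and 176 CPM of Ly6c1, so both genes were higher in B cells at the threshold than over all B cells (678 and 162 CPM). In cells with 2 A-list and 0 B-list UMIs both genes were also above their level over all A cells (281 and 23.2 CPM). The 1339 cells with no UMI of either list lay between, at 473 CPM of Ly6a and 88.5 CPM of Ly6c1. The 643 cells with UMIs of both lists and no call had a median of 7911 UMIs, 530 CPM of Ly6a and 109 CPM of Ly6c1. Ly6e stayed between 477 and 513 CPM in all of these sets.

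Ly6a and Ly6c1 were found in the same cells more often than their separate shares give, in both classes. Among 7406 thinned A cells, 270 had both, against 173 expected from the product of the shares, a ratio of 1.56 (1.38 to 1.76). Among 8827 thinned B cells, 2417 had both against 2050 expected, a ratio of 1.18 (1.13 to 1.23). Ly6c1 was detected in 37.3% of B cells with Ly6a and 16.1% of B cells without it. In A cells these shares were 8.12% and 2.82%. The ratio is bounded by the larger share, so the values in A and B are not compared. Pearson's r of log(1 + thinned count) was 0.190 over the A cells and 0.333 over the B cells. In cells thinned to 6000 UMIs it was 0.325 in A and 0.452 in B. All cells of a class share 1 library, and r is a description.

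Ly6c1 was higher at each step of the Ly6a count of the cell. In B cells its level was 66.6 CPM at 0 Ly6a UMIs, 105 at 1, 159 at 2, 202 at 3, 269 at 4 and 394 at 5 or more. In A cells it was 9.81, 18.4, 28.0, 62.4, 89.4 and 142 CPM at the same counts, the last over 120 cells. The intervals of the first and last steps did not overlap in either class.

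Ly6e followed Ly6a less closely. From 0 to 5 or more Ly6a UMIs, Ly6e went from 442 to 692 CPM in A cells and from 415 to 554 CPM in B cells. Ly6a and Ly6e were found together with an observed over expected ratio of 1.04 (0.996 to 1.08) in A and 1.03 (0.998 to 1.06) in B. Their r was 0.107 in both classes. Ly6e was detected in 76.6% of A cells with Ly6a and 71.8% of those without it, and in 76.0% and 68.75% of B cells. For Ly6c1 and Ly6e the ratio was 1.11 (0.988 to 1.24) in A and 1.05 (1.01 to 1.10) in B. These intervals are Poisson limits on the count of cells with both genes. With the shares fixed that count varies less, so an interval that held 1 does not show that the genes were independent. All 3 genes were detected in 3.02% of A cells and 21.4% of B cells, and none of the 3 in 15.2% of A cells and 7.25% of B cells.

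**Figure D3:**
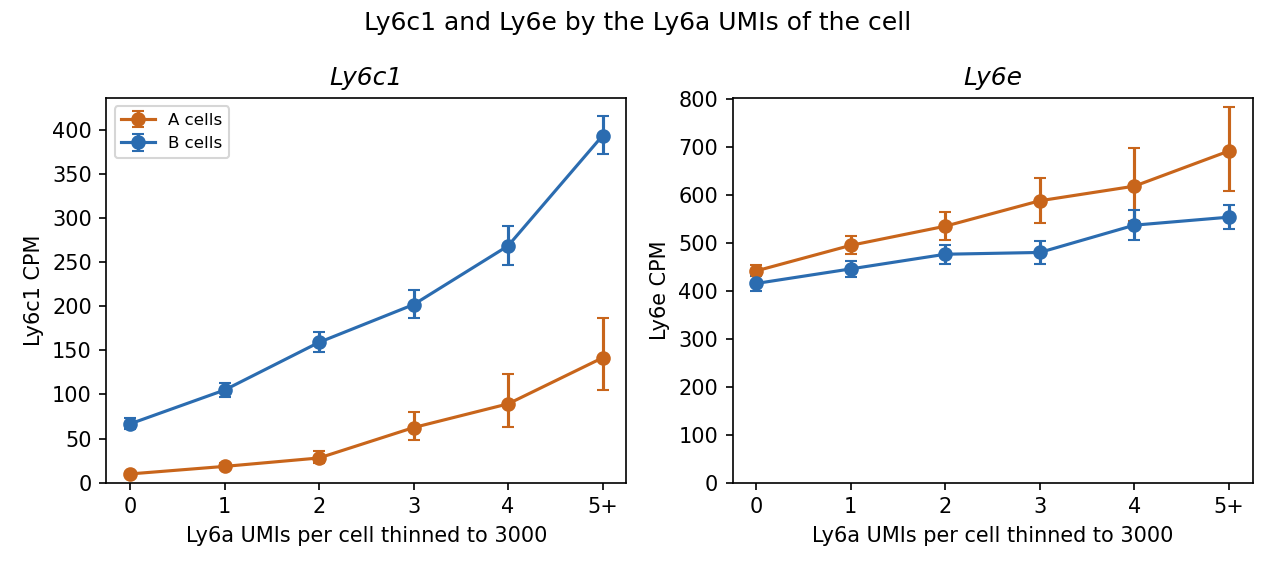
Ly6c1 level (left) and Ly6e level (right) in CPM by the number of Ly6a UMIs of the cell, thinned to 3000 UMIs, in A cells (orange) and B cells (blue) with exact 95% Poisson intervals. Ly6c1 goes from 66.6 to 394 CPM in B cells and from 9.81 to 142 CPM in A cells, while Ly6e changes by a smaller factor.

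Genes of the other class moved with Ly6a in A cells. The 10 genes most restricted to B cells summed to 52.6 CPM in A cells with 0 Ly6a UMIs, 71.8 at 1 or 2, 113 at 3 or 4 and 147 CPM at 5 or more, against 2123 CPM in B cells. Krt7 is one of the 10 and gave most of their level over each class, with 53.4 CPM over all A cells and 1358 CPM over all B cells. Its part at each Ly6a count was not read. In B cells the 10 genes most restricted to A cells summed to 65.6 CPM at 0 Ly6a UMIs, 62.3 at 1 or 2, 70.9 at 3 or 4 and 45.003 CPM at 5 or more. In A cells with no UMI of the B list and not marked as a doublet (a droplet with 2 cells) by the program Scrublet, the observed over expected ratio of Ly6a and Ly6c1 was 1.56, as in all A cells.

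In B cells, Ly6a and Ly6c1 tracked the share of a cell's UMIs that came from chromosome 5, although the Ly6 genes themselves lie on chromosome 15. This pattern was found after the values were seen. With Ly6a, r of the chromosome 5 share was 0.400 in B cells, the highest of 20 chromosomes. Chromosome 15 without its Ly6 cluster was next at 0.093. At the other end were chromosome 18 at -0.158, where 16 of 104 genes had a positive r, and chromosome 3 at -0.146. With Ly6c1, chromosome 5 was again first at 0.336. With Ly6e it was second at 0.080, after chromosome 15 at 0.091. Of 212 chromosome 5 genes with at least 50 CPM in B cells, 209 had a positive r with Ly6a, 209 with Ly6c1 and 174 with Ly6e. On chromosome 15, 80 of 149 genes had a positive r with Ly6a.

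The chromosome 5 share had several peaks in B cells and 1 main peak in A cells. Counted in steps of 0.25 percentage points, B cells peaked from 3.5 to 3.75% (124 cells), from 5.5 to 5.75% (931 cells) and from 7.5 to 7.75% (454 cells). Between these peaks the counts fell to 71 cells at 4.25 to 4.5% and 280 cells at 6.75 to 7.0%. A cells peaked from 6.5 to 6.75% (1343 cells). The share was nearly unrelated to depth in B cells (r -0.036 with log UMIs) and to mitochondrial percent (r -0.066). DNA was not measured.

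Ly6a was higher in each bin of that share than in the bin below it in B cells. It was 202 CPM in 445 cells under 4%, 392 at 4 to 5%, 503 at 5 to 6%, 555 at 6 to 7%, 883 at 7 to 8%, 957 at 8 to 9% and 1324 CPM in 723 cells at 9% or more. The last bin was 6.54-fold (5.78 to 7.44) above the first. Ly6c1 was 50.2, 70.6, 90.6, 118, 221, 281 and 416 CPM in the same bins, an 8.29-fold (6.46 to 10.8) range. Ly6e went from 371 to 537 CPM, 1.45-fold (1.30 to 1.61). Leaving out ribosomal protein genes, r of the share in B cells was 0.383 with Ly6a and 0.328 with Ly6c1.

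The relation of Ly6a and Ly6c1 was also read within bins in B cells. Their r was between 0.094 and 0.359 in the 7 bins, against 0.333 over all B cells. Observed over expected co-detection was 1.04 to 1.38 within bins. Its Poisson interval held 1 in all bins but 5 to 6% and 6 to 7%. With the shares of both genes fixed, the count of cells with both varies less than Poisson. An interval that held 1 therefore does not show that the genes were independent within a bin. The observed over expected ratio is bounded by the Ly6a share, which was 92.8% at 9% or more, so bins are not compared by it. A and B cells also differed within bins: at 6 to 7%, Ly6a was 244 CPM in 4232 A cells and 555 CPM in 1855 B cells, and Ly6c1 was 18.4 and 118 CPM. Under 4% the Ly6a intervals overlapped, at 181 CPM (96.1 to 309) in 24 A cells and 202 CPM (179 to 228) in B cells.

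**Figure D4:**
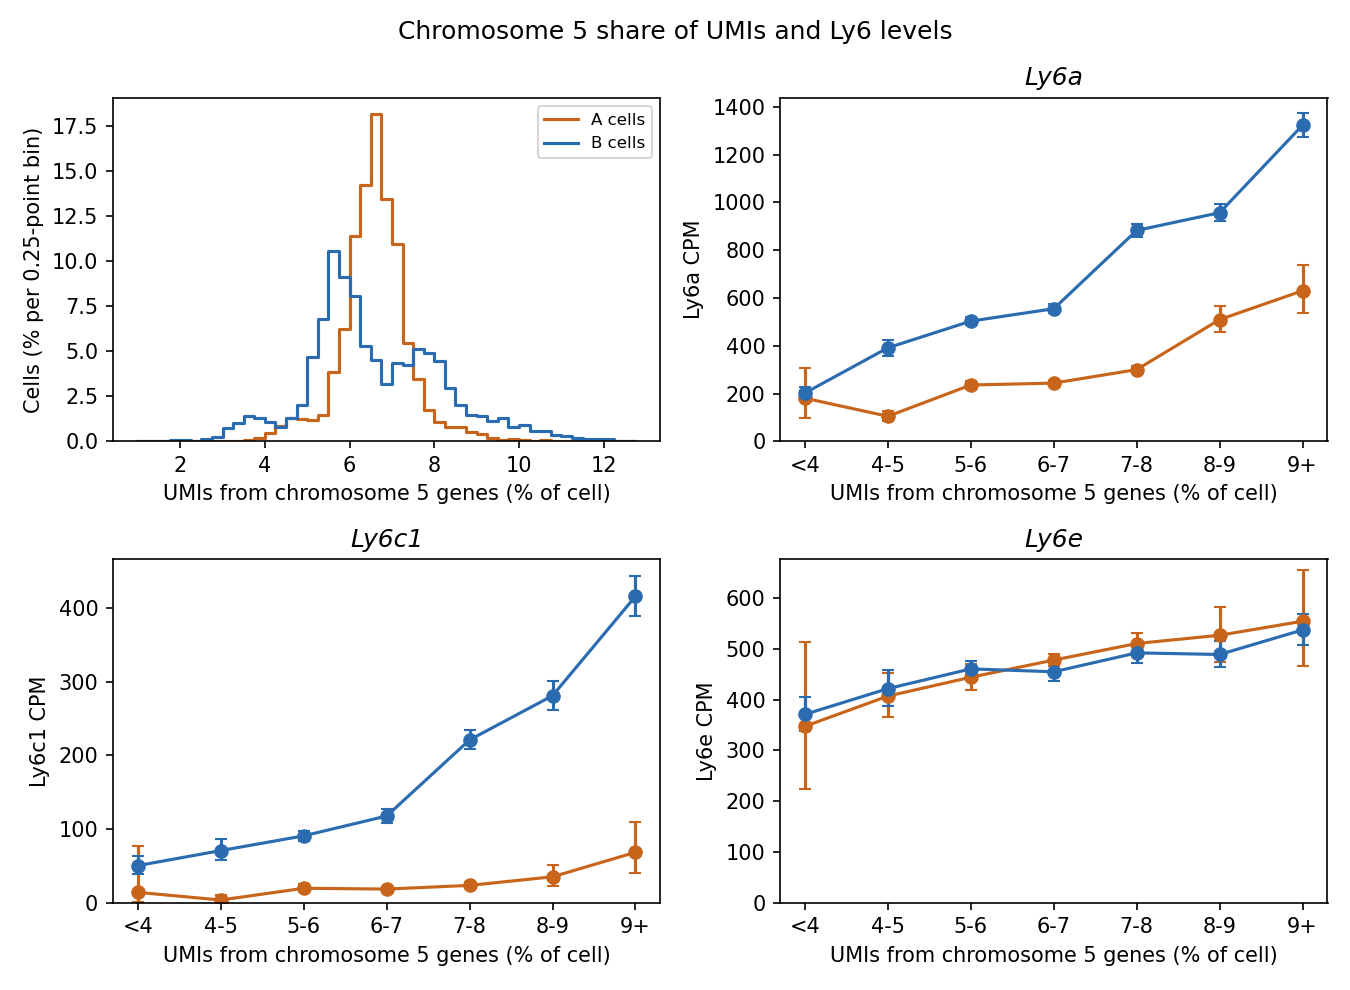
Top left, share of A cells (orange) and B cells (blue) in percent by the percentage of a cell's UMIs from chromosome 5 genes, in steps of 0.25 points; other panels, CPM of Ly6a, Ly6c1 and Ly6e in 7 bins of that percentage with exact 95% Poisson intervals. B cells show peaks near 3.5, 5.5 and 7.5%, and Ly6a in B cells goes from 202 to 1324 CPM across the bins.

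In A cells Ly6a also went with the chromosome 5 share, and it went inversely with the chromosome 2 share. The r of Ly6a in A cells was 0.163 with chromosome 5, again the highest of 20, and -0.177 with chromosome 2, the lowest. Chromosome 15 without its Ly6 cluster was next highest at 0.122. For Ly6c1 and Ly6e in A cells chromosome 15 was highest, at 0.068 and 0.094, followed by chromosome 5 at 0.066 and 0.065. Of 236 chromosome 5 genes, 171 had a positive r with Ly6a. Ly6a was 105 CPM in 286 A cells at 4 to 5% of UMIs from chromosome 5 and 631 CPM in 83 A cells at 9% or more. The last bin was 3.49-fold (1.98 to 6.70) above the first, which held 24 cells. Only 42 of 266 chromosome 2 genes had a positive r with Ly6a in A cells. With Ly6c1 the chromosome 2 share gave -0.135, and with Ly6e -0.065. The chromosome 2 share had a main peak from 6.0 to 6.25% (1252 A cells) and a smaller one from 4.5 to 4.75% (234 A cells).

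The 974 A cells under 5% of UMIs from chromosome 2 had 444 CPM of Ly6a (420 to 469), 54.8 CPM of Ly6c1 and 576 CPM of Ly6e. The 3870 A cells at 6 to 7% had 218 CPM of Ly6a (210 to 227), 12.8 CPM of Ly6c1 and 463 CPM of Ly6e. The 10 genes restricted to B cells were also higher under 5%, at 127 CPM against 44.2 CPM, and B cells had a median chromosome 2 share of 4.63%. In the 880 A cells under 5% with no B-list UMI and no doublet mark, Ly6a was 437 CPM, Ly6c1 51.9 CPM and the 10 B genes 88.3 CPM. The part of RNA from B cells in these values was not tested.

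Likeness to a member was r over thinned cells, for genes at 50 CPM or more in the class. Ly6c1 was under that level in A cells and is left out of the orders of Ly6a and Ly6e there. In B cells Ly6c1 was first (0.333), followed by Rpl21 (0.295), Lgals2 (0.267), Rplp0 (0.260) and Rpl6 (0.253). Rpl21, Rplp0 and Rpl6 encode proteins of the large ribosomal subunit or its stalk, and Lgals2 a sugar-binding galectin. Ribosomal protein genes did not move with Ly6a as a group: over 84 of them r ran from -0.106 to 0.295 with a median of -0.005, and 32 were above 0. Rpl21, Rplp0 and Rpl6 lie on chromosome 5. Of the 20 non-Ly6 genes most like Ly6a in B cells, 14 lie on chromosome 5, as do 16 of 20 for Ly6c1, against 212 of 3268 genes compared.

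For Ly6c1 in B cells the order after Ly6a was Rpl21 (0.229), Rplp0 (0.198), Rpl6 (0.197) and Rpl9 (0.152). The lowest r with Ly6a in B cells was that of Clu, the secreted chaperone clusterin (-0.165), then Basp1 (-0.157), Tpm1 (-0.151) and Cald1 (-0.142). Tpm1 and Cald1 encode the actin-binding proteins tropomyosin and caldesmon. From 0 to 3 or more Ly6a UMIs, Cald1 went from 229 to 122 CPM, and Tpm1 from 971 to 725 CPM.

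In A cells the highest r with Ly6a belonged to Tm4sf1 (0.153), Tmsb10 (0.145), Lgals1 (0.133), Anxa1 (0.110) and Ly6e (0.107). Tm4sf1 is a tetraspanin-like surface protein, Tmsb10 binds actin monomers, Lgals1 is a galectin and Anxa1 an annexin. The lowest were S100g (-0.098), which encodes a calcium-binding protein, and Fabp5 (-0.094), a fatty acid carrier. S100g was 236 CPM in A cells with 0 Ly6a UMIs and 110 CPM in those with 3 or more. In A cells Ly6c1 was most like Ly6a (0.190), Lgals1 (0.107), Tm4sf1 (0.099), Fbln2 (0.097), which encodes a matrix protein, and Tmsb10 (0.096). The highest r of Ly6e with any gene was 0.107, with Ly6a, in both classes. In A cells its next were Spp1 (0.064), the secreted osteopontin, Tmsb10 (0.055), Rpl30 (0.050) and Lgals1 (0.049). In B cells its next were Lgals2 (0.088), Ly6c1 (0.080), Rpl21 (0.074) and Rplp0 (0.067).

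In B cells, Ly6a had little relation to depth, mitochondrial percent and cell-cycle genes, while in A cells it had some relation to depth. The r of Ly6a in B cells was -0.036 with depth, -0.002 with mitochondrial percent, -0.002 with a list of G2/M genes and 0.056 with a list of S-phase genes. In A cells the r of Ly6a with depth was 0.116, and its level was 226 CPM in the third of A cells with the fewest UMIs and 318 CPM in the third with the most. Ly6c1 in A cells was 13.9 CPM and 30.2 CPM in the same sets of cells.

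Levels were also read between states of the cells within each class. States were set from 3 genes each after thinning, with at least 2 UMIs and at least 3 times the other sum. In A cells, 833 cells of an S100g, Epcam and Tm4sf20 state had 220 CPM of Ly6a and 1606 cells of a Tnc, Acta2 and Ptchd4 state had 279.5 CPM, a log2 ratio of -0.34 (-0.45 to -0.23). Ly6c1 was 10.7 and 21.2 CPM in these states, a log2 ratio of -0.99 (-1.49 to -0.50). Ly6e was 441 and 481 CPM (-0.12). The A cells in neither state had 294 CPM of Ly6a (287 to 300) and 26.1 CPM of Ly6c1 (24.2 to 28.1), above both. These intervals overlapped those of the Tnc, Acta2 and Ptchd4 state (268 to 291 and 18.3 to 24.6).

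In B cells, 4894 cells of a Krt14, Sprr1a and Krt7 state had 616 CPM of Ly6a and 256 cells of an Areg, Btc and Cftr state had 879 CPM, a log2 ratio of -0.51 (-0.59 to -0.43). Ly6c1 was 139 and 229.8 CPM, a log2 ratio of -0.72 (-0.88 to -0.56). Ly6e was 464 and 454 CPM, and the interval of its log2 ratio, -0.08 to 0.14, held 0. The B cells in neither state had 745 CPM of Ly6a and 187 CPM of Ly6c1, between those of the states. Krt7 was abundant in B cells and set most of the first state. Without Krt7, an alternative chosen after seeing the data, the states held 433 and 3131 B cells and the log2 ratios were -0.85 for Ly6a, -1.14 for Ly6c1 and -0.20 for Ly6e.

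Other genes of the Ly6 cluster on chromosome 15 did not all follow Ly6a and Ly6c1. Psca, prostate stem cell antigen, was 0.397 CPM in A and 15.3 CPM in B, and Slurp1, a secreted LU-domain protein, was 0.323 and 7.47 CPM. Ly6m had 3 UMIs in A and 89 in B, and Ly6i 5 and 24. Ly6g, the granulocyte marker, went the other way, at 10.7 CPM in A and 2.50 CPM in B. Lynx1, which binds nicotinic receptors, was 2.26 and 2.14 CPM. Ly6g2 was 5.46 and 10.7 CPM, and Ly6f 4.12 and 5.51 CPM. Ly6a2 gave 12 UMIs in A and 0 in B. Ly6g6g, Ly6l, Ly6h and Gpihbp1 gave 0 UMIs in both. Shared sequence among these other cluster genes was not checked.

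**Figure D5:**
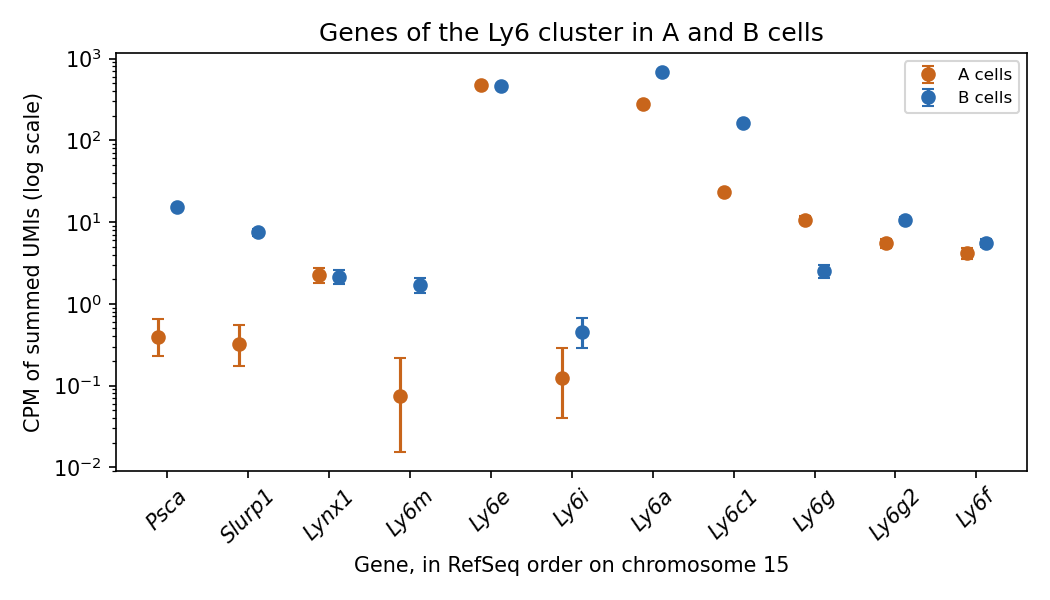
CPM (log axis) of the Ly6 cluster genes with at least 20 UMIs in A and B together, in RefSeq order along chromosome 15, in A cells (orange) and B cells (blue) with exact 95% Poisson intervals. Psca, Slurp1, Ly6m, Ly6i, Ly6a, Ly6c1, Ly6g2 and Ly6f are higher in B cells, Ly6f by the least. Ly6g is higher in A cells, and Ly6e and Lynx1 are close. Heights are compared only within a gene.

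Of 35 other LU-domain genes across the genome, 5 reached 10 CPM in A or B. Ly6g and Bambi, a decoy receptor of TGF-beta signalling, were at least 2-fold higher in A, with Bambi at 10.9 against 0.474 CPM. Psca was at least 2-fold higher in B. Plaur, the urokinase receptor, at 145 and 199 CPM, and Ly6g2 were within 2-fold. Among all 8800 genes at that level, 10.3% were at least 2-fold higher in A and 7.26% in B.

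Of 36 genes of interferon signalling and response, 15 reached 10 CPM. Of these 15, 4 were at least 2-fold higher in A, 1 in B and 10 within 2-fold, with a median log2 ratio of A over B of 0.78. Over the 8800 genes, 10.3% were at least 2-fold higher in A and 7.26% in B, and the median was 0.17. The 4 included Ifitm2, at 496 CPM in A and 137 CPM in B, and B2m, at 164 and 56.3 CPM. Ifngr2, a subunit of the interferon gamma receptor, was 156 and 89.4 CPM. The list's sum was 1432 CPM in A and 693 CPM in B, the opposite order to Ly6a and Ly6c1. Within a class, r of the list's sum with Ly6a was -0.093 in A and -0.060 in B.

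Of 27 measured genes that build or attach GPI anchors, 18 reached 10 CPM, with 2 at least 2-fold higher in A, 0 in B and 16 within 2-fold. Over all 8800 genes at that level, 10.3% were at least 2-fold higher in A and 7.26% in B, and the count in A is near its share. The 3 with the most UMIs were Dpm3 (118 and 98.96 CPM in A and B), Pgap1 (107 and 103) and Dpm1 (94.6 and 60.0). Of 17 progenitor markers, 9 reached 10 CPM, with 3 higher in A, 3 higher in B and 3 within 2-fold, beside the same 10.3% and 7.26%. Cd24a was 294 and 249 CPM, Itga6, an integrin subunit, 81.8 and 177 CPM, and Msi2, an RNA-binding protein, 174 and 82.0 CPM.

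Markers of the cell types that carry Ly6 proteins in tissue were checked beside Ly6a and Ly6c1. Of 13 immune markers, Ms4a1 and Tyrobp were among those at 0, Ptprc had 4 UMIs in A and 2 in B, and the sum was 41.0 CPM in A and 22.9 CPM in B. Nearly all of it was Cd14. Of 8 endothelial markers, Kdr and Emcn were at 0 and the sum was 42.3 and 8.98 CPM, of which Egfl7 gave 32.6 CPM in A. Of 8 fibroblast markers, Col1a2, Dcn and Lum were at 0 and the sum was 146 and 6.82 CPM, of which Acta2 gave 144 CPM in A. In B cells with Ly6c1 the immune markers summed to 18.7 CPM and the endothelial markers to 9.78 CPM, against 23.7 and 9.45 CPM in B cells without it. The 7 epithelial markers summed to 2739 CPM in A and 7584 CPM in B, most of it from the keratins. Epcam went the other way, at 31.8 CPM in A and 3.16 CPM in B, while Krt7 was 53.4 and 1358 CPM.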

How the data were processed

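Single-cell 3′ expression was measured in 1 library of pooled clones 76 and 84. The authors deposited raw counts, whole numbers of UMIs for each gene in each barcode. The matrix held 22178 barcodes and 116505698 UMIs, from 500 to 23576 per barcode. Cell Ranger 8.0.1 wrote it, per the file headers, on build GRCm39, per the submitters' processing notes. The annotation and any filter on cells are not given in the sources used here.

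The members, lists, cell rule and states were chosen with earlier results of these data known. Scripts in Python 3.11.15 (numpy 2.4.6, scipy 1.17.1, pandas 2.3.3) applied the cell filter and marker rule, summed counts per class, and thinned each cell to 3000 UMIs without replacement. Doublets were marked by Scrublet in scanpy 1.11.5 at an expected rate of 0.08 (1.87% of A cells, 2.33% of B cells, 9.20% of the others) and kept, since the cell rule has no such step. The steps were tested on simulated data.

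The genes named were all 5 members, LU-domain genes with at least 10 CPM, the 5 genes with the highest r with each member of at least 10 CPM in a class, and the 3 interferon, GPI-anchor and progenitor genes with the most UMIs. Others were chosen after their values were seen, as were the Ly6 cluster list, the cell-cycle lists and all results on chromosomes. Chromosomes came from GENCODE M21 by gene identifier, which matched 31961 of 33696 features and 99.7% of UMIs. Promoters came from RefSeq on GRCm38.p6 (2 of 5 members), aligned with Biopython 1.88, and figures were drawn with matplotlib 3.10.9. Alternatives were other cell filters, marker and state rules, doublet removal, depths, seeds and scalings. Some items that the rules name are not reported here.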

Additional observations from a re-analysis of the deposited data

Results flagged for a closer look

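Signal for 3 of the genes also appeared in the 817 barcodes that failed the cell filter and enter no comparison above. These barcodes held 940040 UMIs with a median of 1087 UMIs and 11.1% mitochondrial UMIs. Ly6a was 208.5 CPM there (180 to 240), Ly6c1 was 36.2 CPM (25.05 to 50.5) and Ly6e was 428 CPM (387 to 472). A count of 0 would allow up to 3.19 CPM (3 UMIs). The Ly6a level was below that of A cells (281 CPM), the Ly6c1 level lay between those of A (23.2 CPM) and B cells (162 CPM), and the Ly6e level was below that of A cells (480.1 CPM), with an interval that held that of B cells (464 CPM).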

How the results depend on the processing

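Ly6a and Ly6c1 were higher in B cells under all 8 alternatives. The log2 ratio of A over B for Ly6a and Ly6c1 was -1.18 and -2.65 with the strict cell filter, -1.35 and -3.08 with stricter marker sums, -1.30 and -2.90 without marked doublets, -1.38 and -3.04 after thinning, -1.38 and -3.004 as the mean of CPM per cell, and -1.32 and -2.92 in cells with no marker of the other class. For Ly6e it stayed between 0.04 and 0.07. Co-detection of Ly6a and Ly6c1 was 1.25 in A and 1.09 in B at 6000 UMIs, and 1.10 in B without thinning. Their r was 0.156 in A by rank, and 0.325 in A and 0.452 in B at 6000 UMIs. At that depth r with the chromosome 5 share in B was 0.485 for Ly6a and 0.437 for Ly6c1. Without thinning before the state rule, the state log2 ratio was -0.46 for Ly6a in A, and -0.61 for Ly6a, -1.10 for Ly6c1 and -0.086 for Ly6e in B. With state sums of at least 4 UMIs it was -1.64 for Ly6c1 in A, and -0.72 and -0.94 for Ly6a and Ly6c1 in B. Without Krt7 it was -0.85, -1.14 and -0.20 for Ly6a, Ly6c1 and Ly6e in B. Ly6e thus changed sign under 2 alternatives; the cause was not tested. No paired analysis was possible because there is 1 library.

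The spread between cultures or libraries is unknown, and A and B cells are not shown to be clones 76 and 84. Depth limits Ly6c2 and Ly6k, with 4 UMIs or fewer in each class, and Ly6c1 in A cells, where at 3000 UMIs most cells have none. The r of each pair among Ly6a, Ly6c1 and Ly6e was larger at 6000 than at 3000 UMIs, over fewer cells. CPM values are shares of a total, and so are chromosome shares.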
